A study of Mus musculus with 5 samples.

Results

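Expression of 7 genes of antigen presentation was followed across the cell types of mouse interscapular brown adipose tissue (iBAT). The genes were Ciita, Cd74, H2-Aa, H2-Ab1, H2-Eb1, H2-DMa and H2-DMb1, taken by symbol from the 32285 genes of the deposited matrices, and all 7 were measured. Single nuclei had been sequenced in 5 libraries. A first matrix held libraries of 3 month old mice, 1 from WT littermate controls and 1 from UCP1-STX4KO mice, and a second matrix held libraries of C57BL/6J mice that were 2, 12 and 24 months old. In the knockout, Cre recombinase under the Ucp1 promoter removes floxed Stx4, which encodes the membrane fusion protein syntaxin 4, from brown adipocytes. The littermates that served as controls carried the Cre or the floxed alleles alone, and the knockout line was on the same C57BL/6J background. The methods describe sorted nuclei of 4 male mice without dividing them among libraries, so each condition had 1 library and no replicate. Libraries can be told apart by a digit that closes the barcode (suffix 1 or 2 in the 3-month matrix, suffix 1, 2 or 3 in the aging matrix), but no label links the digit to a genotype or an age. Values are therefore given for each library by suffix, and no genotype or age was compared.

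MHC class II molecules present peptides from endocytosed proteins to CD4+ T cells and are found mainly on dendritic cells, B cells and macrophages. H2-Aa with H2-Ab1 encode the peptide-binding chains of I-A and H2-Eb1 the beta chain of I-E, whose alpha chain gene H2-Ea is not functional in C57BL/6J mice and was not analysed here. Cd74 encodes the invariant chain that escorts them, and H2-DMa with H2-DMb1 encode the H2-M exchanger that loads peptide. Ciita encodes the coactivator that class II promoters depend on, and it acts through RFX, CREB and NF-Y proteins bound to the X and Y boxes just upstream of the start.

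Promoter sequences are shown first because class II genes are known for these boxes. The set of RefSeq (GRCm38.p6) promoters used here held 4 of the 7 genes, namely H2-Aa, H2-Eb1, H2-DMa and H2-DMb1. It had no entry for Ciita, Cd74 and H2-Ab1, which were therefore not searched. The 250 bases before each start were searched on both strands for CCAAT (the core of a Y box), for AACNGATG (an X box core) and for TGACGTCA (a CREB site). Over 32851 promoters, 33.8% held CCAAT, 1.98% held AACNGATG and 1.55% held TGACGTCA. The 100 bases from position -130 to -31 are shown for 3 genes, 5′ to 3′ on the strand of the gene, with every match in capitals; matches did not overlap each other. H2-Aa (chr17:34287854-34287953, minus strand) and H2-Eb1 (chr17:34305737-34305836, plus strand) are shown as peptide-binding chains with matches, and the first of the starts that RefSeq lists for H2-DMa (chr17:34122702-34122801, plus strand) as a gene of the exchanger. This H2-DMa window lies inside the gene as GENCODE draws it, from 34119541, and other GENCODE starts of the gene were not searched.
H2-Aa: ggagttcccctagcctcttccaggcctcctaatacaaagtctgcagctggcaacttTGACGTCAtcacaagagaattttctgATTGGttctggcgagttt
H2-Eb1: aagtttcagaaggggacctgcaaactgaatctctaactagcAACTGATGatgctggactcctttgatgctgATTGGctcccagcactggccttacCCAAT
H2-DMa: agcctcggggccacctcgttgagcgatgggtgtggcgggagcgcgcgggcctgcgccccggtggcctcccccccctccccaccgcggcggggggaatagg
H2-Aa held the CREB site from -74 and a Y box core on the opposite strand from -48. H2-Eb1 held the X box core from -89, a Y box core on the opposite strand from -59 and a further CCAAT string on its own strand from -35. H2-DMb1 likewise had the X box core from -92 and an opposite-strand Y box core from -61, counted from its RefSeq start. Both matches lie inside the gene as GENCODE draws it, from 34153072. In the 250 bases before this RefSeq start of H2-DMa none of the 3 strings was found. The other RefSeq start of H2-DMa had only an opposite-strand CCAAT string from -198.

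The 3-month libraries held 11201 and 9106 barcodes with 76195924 and 39857819 UMIs, a median of 5998 and 3284.5 UMIs per nucleus. The libraries of the aging matrix held 10000 barcodes each, with 14486189, 19278264 and 20891602 UMIs and medians of 891, 1635 and 1719.5. Libraries shared 23 barcodes in the 3-month matrix and 28, 45 and 28 between pairs of the aging matrix. Nuclei were gated into cell types by UMIs of fixed marker lists that contain none of the 7 genes. Nuclei passing only the macrophage and the B and dendritic lists went to the stronger of them. Those passing only the endothelial and the lymphatic endothelial lists were called lymphatic endothelial. Other nuclei passing several lists were set aside as mixed. Every sample is labelled as brown adipocytes, whereas the adipocyte gate took 74.3% and 49.1% of nuclei in the 3-month libraries and 8.10%, 9.65% and 3.38% in the aging libraries. An endothelial gate took 32.5%, 48.3% and 75.01% of the aging nuclei. In the 3-month matrix the macrophage-like gate held 90 and 854 nuclei, the gate of B and dendritic-like nuclei 22 and 114, and the T-like gate 30 and 180. Marker levels describe the gates and follow from the gating rule. The 8 macrophage markers summed to 3215 and 3750 UMIs per 1000000 UMIs (CPM) in the macrophage gate against 45.2 and 92.7 in the adipocyte gate. Adipocyte markers were still at 6999.6 and 3166 CPM in the macrophage gate, against 13466 and 18001 in their own. The source of this RNA and its part in the values were not tested.

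Class II RNA of the 3-month tissue was concentrated in the macrophage and the B and dendritic gates. The summed UMIs of the 6 genes other than Ciita, called the class II sum here, stood at 1566 CPM (95% exact Poisson interval 1448 to 1690) and 578 CPM (549 to 607) in the macrophage gate of the libraries with suffix 1 and 2. In the B and dendritic gate it was 1215 (1020 to 1436) and 1307 CPM (1179 to 1446), and in the adipocyte gate 20.2 (19.0 to 21.3) and 28.2 CPM (26.2 to 30.4). Neither antigen-presenting gate came near the adipocyte gate in either library. The macrophage gate exceeded it 77.7-fold (70.5 to 85.5) and 20.4-fold (18.7 to 22.3), and the B and dendritic gate 60.3-fold (50.1 to 72.0) and 46.3-fold (40.8 to 52.5). H2-DMa, described further on, weighs on the adipocyte value, and without it that value was 10.1 and 21.8 CPM. The macrophage ratio was then 153-fold (137 to 171) and 25.8-fold (23.4 to 28.4), and the B and dendritic ratio 117-fold (96.7 to 142) and 59.0-fold (51.6 to 67.3). All intervals cover counting error only, and with 1 library per condition no spread between mice was available.

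**Figure D1:**
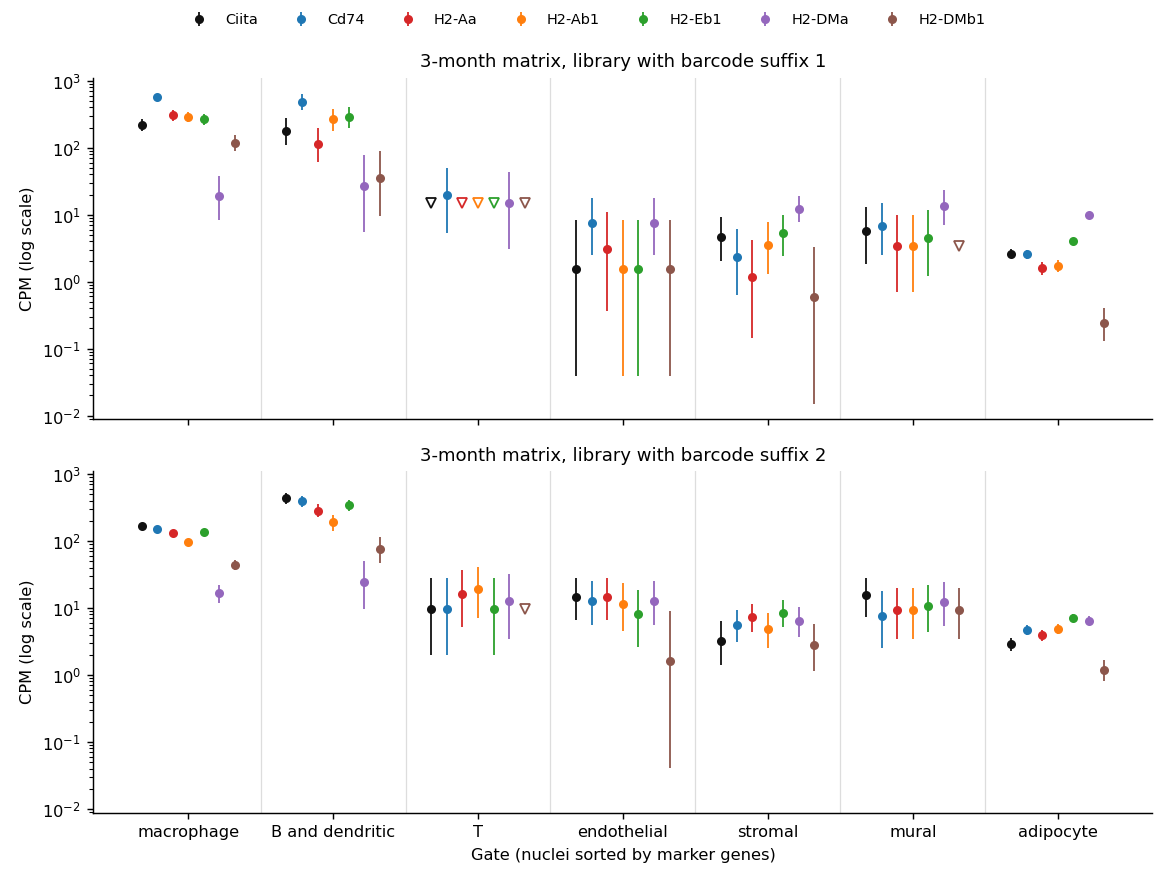
CPM on a log axis of Ciita and each class II gene (colours) in the gates of the 3-month matrix, with a panel per library, error bars for 95% exact Poisson intervals, and open down-pointing triangles for counts of 0 drawn at the limit of 3 counts. Every gene but H2-DMa stands at least 10-fold higher in the macrophage and the B and dendritic gates than in the adipocyte gate in both libraries.

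Ciita, the coactivator gene, lies at chr16:10480059-10528418 (GRCm38, plus strand; ENSMUSG00000022504). Its level was 222 and 169.8 CPM in the macrophage gate, 177 and 436 CPM in the B and dendritic gate, and 2.62 and 2.86 CPM in the adipocyte gate. The macrophage gate thus exceeded the adipocyte gate 84.5-fold (64.6 to 110.1) and 59.4-fold (46.4 to 76.9). Several of the other gates held few Ciita UMIs. The T gate held 0 UMIs with suffix 1, which allows up to 14.7 CPM, and 3 UMIs (9.56 CPM) with suffix 2. Endothelial nuclei showed 1.52 and 14.5 CPM (1 and 9 UMIs) and stromal nuclei 4.70 and 3.23 CPM. Mural nuclei showed 5.64 and 15.4 CPM (5 and 10 UMIs), and nuclei that passed no list 2.81 and 40.9 CPM. With suffix 2 these levels exceeded the adipocyte gate 5.08-fold in endothelial (2.24 to 10.2), 5.39-fold in mural (2.48 to 10.5) and 14.3-fold in ungated nuclei (10.3 to 19.9), whereas with suffix 1 the intervals of the same 3 ratios included 1. Between the libraries, the Poisson intervals overlapped in endothelial and mural nuclei and not in ungated nuclei. Ciita overlaps Dexi on the other strand, and whether the counting used strand is not given in the sources used here. Dexi was at 76.3 and 24.0 CPM in the macrophage gate and at 47.6 and 22.0 CPM in the adipocyte gate. The part of Dexi reads in the Ciita counts was not tested.

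Cd74, the invariant chain (chr18:60803848-60812652, plus strand; ENSMUSG00000024610), was at 567 and 153 CPM in the macrophage gate, 488 and 391 CPM in the B and dendritic gate, and 2.55 and 4.69 CPM in the adipocyte gate. The macrophage level of the first library was thus far above that of the second, while the B and dendritic gate differed less. Where a gate had to hold 3 or more UMIs of a gene, Cd74 was also the only member of the group at least 2-fold above the adipocyte gate in T nuclei of both libraries (19.7 and 9.56 CPM, from 4 and 3 UMIs) and in endothelial nuclei of both (7.60 and 12.9 CPM, from 5 and 8 UMIs). Those counts are small. Over all 14809 genes compared, 6.17% were at least 2-fold higher in the T gate and 9.17% in the endothelial gate in both libraries.

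The peptide-binding chains lie together on chromosome 17, H2-Ab1 at chr17:34257689-34269419 (ENSMUSG00000073421), H2-Aa at chr17:34282744-34287823 (ENSMUSG00000036594) and H2-Eb1 at chr17:34305867-34316674 (ENSMUSG00000060586). H2-Aa was at 305 and 132 CPM in the macrophage gate, 115 and 284 CPM in the B and dendritic gate, and 1.58 and 3.89 CPM in the adipocyte gate. H2-Ab1 reached 291 and 95.9 CPM in macrophage nuclei, 266 and 190.2 CPM in B and dendritic nuclei, and 1.73 and 4.88 CPM in adipocyte nuclei. H2-Eb1, the I-E beta chain, reached 265 and 136 CPM, 284 and 342 CPM, and 4.01 and 7.13 CPM in the same gates. All 3 chains followed the order of Cd74 in the macrophage gate, with the library of suffix 1 above that of suffix 2. H2-Eb1 overlaps the antisense gene Gm20513, which was at 19.1 and 6.37 CPM in macrophage nuclei and at 0.0686 and 0.191 CPM in adipocyte nuclei, so reads of this pair may be shared.

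The exchanger genes did not behave alike. H2-DMb1 (chr17:34153072-34160230, plus strand; ENSMUSG00000079547) was at 119 and 44.2 CPM in the macrophage gate, 35.5 and 76.1 CPM in the B and dendritic gate, and 0.240 and 1.18 CPM in the adipocyte gate. It kept the step of the other class II genes. H2-DMa (chr17:34119541-34139101, plus strand; ENSMUSG00000037649) was at 19.1 and 16.5 CPM, 26.6 and 24.2 CPM, and 10.0 and 6.48 CPM in the same gates. The macrophage gate exceeded the adipocyte gate for H2-DMa by 1.90-fold (0.816 to 3.77) and 2.54-fold (1.78 to 3.56), an interval that spans no difference in the library with suffix 1. Stromal (12.3 and 6.46 CPM) and mural nuclei (13.5 and 12.3 CPM) lay in the same range. H2-DMa overlaps Brd2, a chromatin reader on the other strand, which was at 78.6 and 96.3 CPM in macrophage nuclei and at 98.3 and 100.4 CPM in adipocyte nuclei. The part of Brd2 reads in the H2-DMa counts was not tested.

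With at least 10-fold in both libraries as a call, 6 of the 7 genes were called in the macrophage gate over the adipocyte gate, where 4.46% of the 14809 genes were. In the B and dendritic gate the same 6 were called, with 2.95% of all genes. The gene left out was H2-DMa each time. At 2-fold, 6 were called in the macrophage gate (11.5% of genes) and all 7 in the B and dendritic gate (7.0%), and none was called lower in either (2.70% and 1.26%). Calls needed at least 3 UMIs in the gate, counted the adipocyte gate as at least 3 UMIs, and carry no test.

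The makeup of the class II sum differed between the antigen-presenting and the adipocyte gates. H2-DMa gave 1.22% and 2.86% of class II UMIs in the macrophage gate and 2.19% and 1.85% in the B and dendritic gate. It gave 49.8% and 22.9% in the adipocyte gate and 48.8% and 18.2% in the stromal gate. Ungated nuclei were at 39.4% with suffix 1 and at 4.38% (2.41 to 7.23%) with suffix 2, where the interval overlaps that of the macrophage gate (2.08 to 3.81%). UMIs of a 3′ kit are not scaled to gene length, so these shares compare a gene between gates and do not rank the genes.

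**Figure D2:**
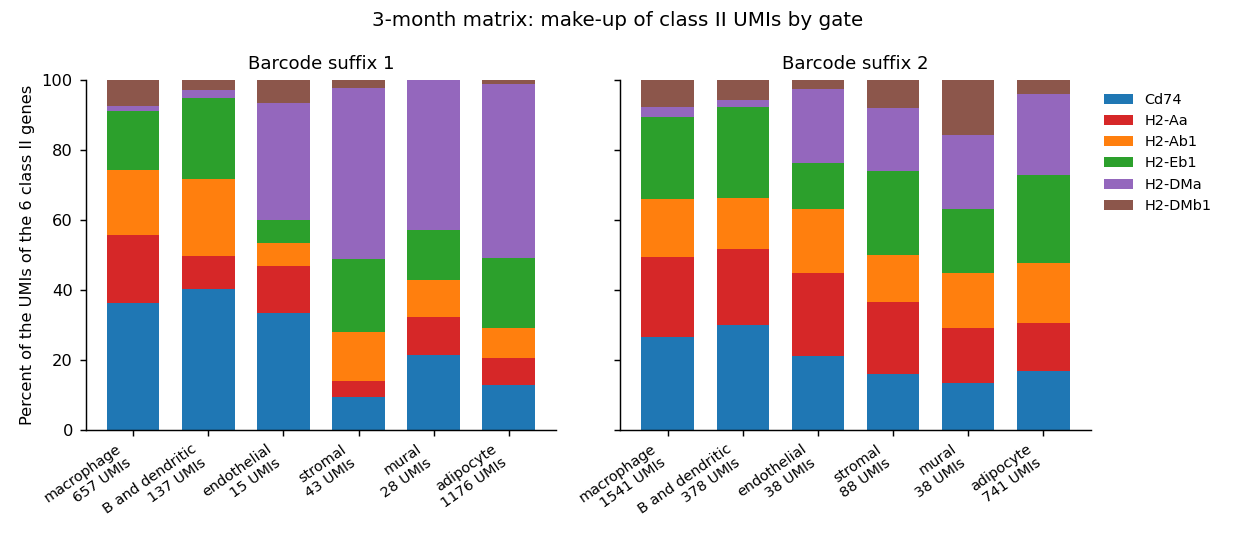
Share of class II UMIs, in percent, given by each of the 6 class II genes within each gate and library of the 3-month matrix. H2-DMa takes 1.22% and 2.86% in the macrophage gate and 49.8% and 22.9% in the adipocyte gate.

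The order of the antigen-presenting gates depended on the library. B and dendritic nuclei were at 0.776 of the macrophage level for the class II sum with suffix 1 (0.641 to 0.934) and at 2.26-fold of it with suffix 2 (2.02 to 2.53). For Ciita the ratio was 0.800 (0.467 to 1.31) and 2.57 (2.09 to 3.13). The makeup of the B and dendritic gate differed between the libraries. Its B markers were at 1481 and 875 CPM and its dendritic markers at 1427 and 3182 CPM. Macrophage markers were at 293 and 993 CPM in that gate. In the macrophage gate, B markers were at 369 and 178 CPM and dendritic markers at 269 and 568 CPM. Bank1 and Wdfy4 had the most UMIs of these lists in both gates. The part of the makeup of either gate in the ratios was not tested. The B and dendritic level of the class II sum itself was close between libraries, at a ratio of suffix 1 to suffix 2 of 0.929 (0.758 to 1.13), and the macrophage level differed 2.71-fold (2.47 to 2.97). That closeness was one of the sum. In the B and dendritic gate H2-Aa was at a ratio of 0.406 (0.208 to 0.734) and Ciita at 0.407 (0.240 to 0.655). Intervals of the other genes there included 1. The dendritic and B parts of the gate, given further on, differed in opposite directions.

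Within the macrophage gate, nuclei were split by whether a resident-type list (Lyve1, Folr2, Timd4, Cd163, F13a1) or a recruited-type list (Ccr2, Cx3cr1, Trem2, Gpnmb, Cd72) was the stronger. The library with suffix 1 had 48 resident-type, 15 recruited-type and 27 undecided nuclei, and the library with suffix 2 had 111, 575 and 168. Resident-type nuclei stood at 1496 and 1507 CPM for the class II sum, a ratio of 0.993 (0.859 to 1.15) between the libraries. Recruited-type nuclei stood at 1303 and 345 CPM, a ratio of 3.78 (3.03 to 4.67), and the undecided nuclei at 1887 and 1069 CPM, a ratio of 1.77 (1.49 to 2.09). Ciita in resident-type nuclei was at 213 and 329 CPM, a ratio of 0.646 (0.447 to 0.922). This interval overlaps that of the class II sum in the same nuclei, and the difference between these ratios was not tested. Over the whole macrophage gate the Ciita ratio was 1.31 (1.03 to 1.64). The part of the mix of these nuclei in the macrophage levels was not tested.

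With suffix 2 the class II sum of recruited-type nuclei was 0.229 of the resident-type level (0.202 to 0.259). Cd74 was 0.221 of it, H2-Aa 0.212, H2-Ab1 0.177 and H2-Eb1 0.235, so the invariant chain and the peptide-binding chains were lower by a similar factor. Ciita was 0.353 (0.276 to 0.454), at 116 against 329 CPM, and H2-DMb1 0.408 (0.244 to 0.705). H2-DMa had a ratio of 0.535 with an interval that includes 1 (0.240 to 1.35). The 8 macrophage markers were at 4200.4 CPM in resident-type and 3653 CPM in recruited-type nuclei of that library, and the adipocyte markers at 2990.2 and 3072 CPM. With suffix 1, where only 15 nuclei were recruited-type, the class II sum had a ratio of 0.871 (0.690 to 1.09) and Ciita 0.981 (0.521 to 1.76), both with intervals that include 1.

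**Figure D3:**
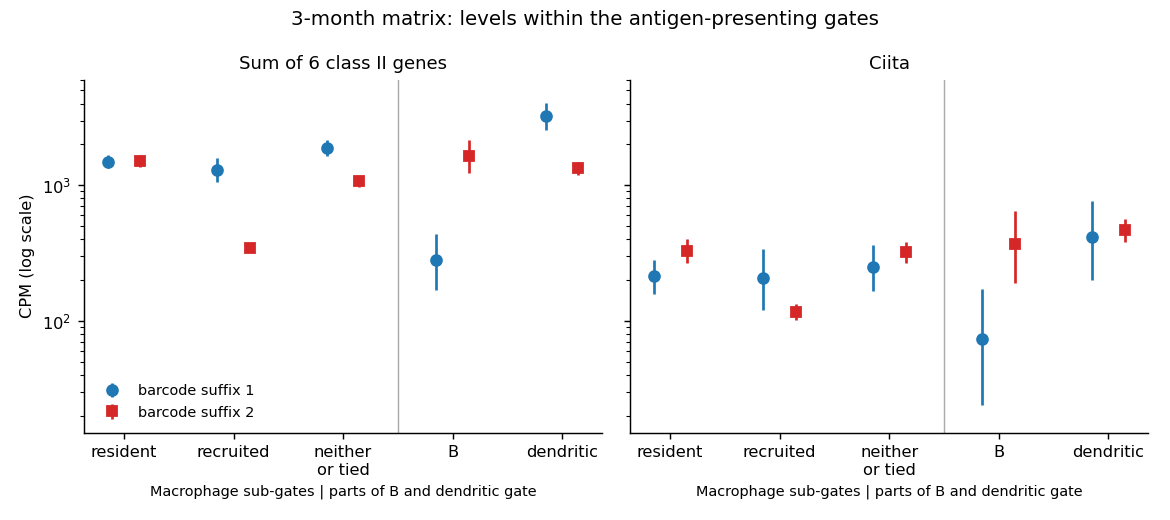
CPM on a log axis of Ciita and the class II sum in parts of the macrophage gate and of the B and dendritic gate, by library of the 3-month matrix, with 95% exact Poisson intervals. For the class II sum, resident-type nuclei overlap between the libraries (1496 and 1507 CPM) and recruited-type nuclei do not (1303 and 345 CPM).

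Within the B and dendritic gate, nuclei led by dendritic markers stood at 3237 (9 nuclei) and 1335 CPM (78 nuclei) for the class II sum. Nuclei led by B cell markers stood at 281 (9 nuclei) and 1637 CPM (23 nuclei). The low value rests on 19 UMIs, and adipocyte markers were at 10399.7 CPM in those nuclei. Ciita was at 415 and 467 CPM in the dendritic part and at 74.0 and 371 CPM in the B part. With suffix 1 the ratio of the dendritic to the B part was 11.5 (6.91 to 20.1) for the class II sum and 5.61 (1.75 to 20.9) for Ciita, from 9 nuclei in each part. With suffix 2 it was 0.816 (0.608 to 1.11) for the class II sum and 1.26 (0.692 to 2.52) for Ciita, and neither order could be told at this depth.

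Detection per nucleus followed the levels. Each nucleus was thinned to 1000 UMIs and shallower nuclei were left out, which kept every macrophage and adipocyte nucleus with suffix 1, and 825 of 854 and 4173 of 4470 with suffix 2. After thinning, 67.8% and 31.3% of macrophage nuclei held a UMI of a class II gene other than H2-DMa, as did 63.6% and 53.8% of B and dendritic nuclei. In the adipocyte gate, used as the comparison, 1.14% and 2.32% did. Before thinning the values were 88.9% and 50.8% in macrophage nuclei and 6.05% and 10.96% in adipocyte nuclei, at median depths of 3214.5 and 2590.5 against 6198 and 4954.5 UMIs. Endothelial nuclei had 0.840% and 4.89% after thinning (0.0213 to 4.59% and 2.76 to 7.93%). The interval lay around that of the adipocyte gate with suffix 1 (0.925 to 1.39%) and met it only at its edge with suffix 2 (1.89 to 2.83%). For the class II sum the endothelial to adipocyte ratio was 1.13 (0.631 to 1.87) and 2.17 (1.53 to 3.01). Under other settings it turned to below 1, with intervals that include 1. With suffix 2 it was 0.676 (0.429 to 1.07) among nuclei of 200 to 2000 UMIs, and over both libraries 1.72 became 0.962 (0.520 to 1.78) after thinning to 500 UMIs. Macrophage markers were also higher in endothelial nuclei, split by depth into 3 equal groups after seeing the data. From shallow to deep they were at 195, 212 and 115 CPM with suffix 1 and at 275, 392 and 309 CPM with suffix 2. Adipocyte nuclei had 50.8, 46.8 and 42.1 CPM and 172, 99.0 and 72.6 CPM. These groups were set within each gate and were not matched for depth between gates. With suffix 2 their median depths were 885.5, 1286 and 1970 UMIs in endothelial nuclei. In adipocyte nuclei of that library they were 2378.5, 4954.5 and 9386 UMIs. The part of macrophage RNA in the endothelial values was not tested.

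In the larger of the macrophage gates, class II RNA was found more often in nuclei that also held Ciita RNA. Here H2-DMa is counted among the class II genes. With suffix 2, a class II UMI was present in 70 of 118 thinned macrophage nuclei with a Ciita UMI (59.3%, exact binomial interval 49.9 to 68.3%) and in 194 of 707 without one (27.4%, 24.2 to 30.9%). With suffix 1 the shares were 78.3% of 23 nuclei and 65.7% of 67, and their intervals overlapped. In the B and dendritic gate they were 66.7% of 3 and 63.2% of 19 with suffix 1. With suffix 2 they were 77.4% of 31 (58.9 to 90.4%) and 45.2% of 73 (33.5 to 57.3%). In the adipocyte gate the shares were 5.26% of 19 nuclei with a Ciita UMI and 2.08% of 8300 without with suffix 1, and 7.69% of 13 and 3.20% of 4160 with suffix 2. With 1 such nucleus in each library, no difference was detectable there. The part of the resident-type and recruited-type mix in the macrophage shares was not tested.

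Because adipocyte nuclei were so numerous, low levels still added up. The macrophage, B and dendritic and T gates together held 33.8% of all class II UMIs with suffix 1 and 55.8% with suffix 2, and the adipocyte gate held 49.7% and 21.3%. The order with suffix 1 turned without H2-DMa, when the immune gates held 48.6% (46.1 to 51.0%) and the adipocyte gate 36.4% (34.1 to 38.8%), and with suffix 2 the shares were then 59.4% and 17.98%. Most adipocyte nuclei with class II RNA other than H2-DMa had a single UMI, 457 of 503 and 429 of 490, and only 5 and 7 nuclei held at least 3. In the macrophage gate 97.4% and 77.2% of these UMIs lay in nuclei with at least 3. Adipocyte nuclei were also split by depth into 3 equal groups, a split chosen after seeing the data. From shallow to deep, Cd74, H2-Aa, H2-Ab1, H2-Eb1 and H2-DMb1 together were at 13.4, 12.4 and 7.54 CPM with suffix 1 and at 53.1, 20.9 and 15.4 CPM with suffix 2. The macrophage marker list had the same order, at 50.8, 46.8 and 42.1 CPM and at 172, 99.0 and 72.6 CPM. The aging adipocyte gates did not all have it, since the 5 genes were at 0, 5.91 and 8.27 CPM with suffix 1 (0, 3 and 7 UMIs) and at 56.9, 71.0 and 42.1 CPM with suffix 2, while the marker list fell from shallow to deep in both. With suffix 3 the 5 genes did fall, at 51.6, 22.7 and 6.81 CPM (9, 6 and 3 UMIs), as the marker list did. In the 3-month adipocyte gates H2-DMa lay at 9.19, 9.71 and 10.6 CPM and at 8.10, 6.67 and 6.04 CPM, with overlapping intervals. Ciita lay at 2.41, 2.54 and 2.75 CPM with suffix 1, also with overlapping intervals. With suffix 2 it lay at 6.30 (3.90 to 9.63), 3.60 (2.37 to 5.24) and 1.75 CPM (1.16 to 2.55). The part of free RNA in these levels was not tested.

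The rest of the pathway was described from fixed lists, which do not include the 7 genes. Among DNA-binding partners of Ciita (Rfx5, Rfxank, Rfxap, Nfya, Nfyb, Nfyc, Creb1), none of 7 was at least 2-fold higher in the macrophage or the B and dendritic gate in both libraries, a count near the 11.5% and 7.0% of all genes that were. Creb1 was at 203 and 167 CPM in macrophage nuclei and 126 and 104 CPM in adipocyte nuclei. Rfx5 was at 2.38 and 7.87 CPM against 6.15 and 4.35 CPM.

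Of 6 genes of the interferon gamma route that induces Ciita, Ifngr2 and Irf1 passed 2-fold in the macrophage gate, and Ifngr2, Jak2 and Irf1 in the B and dendritic gate, where 11.5% and 7.0% of all genes did. Ifngr2, a receptor chain, was at 78.6 and 135 CPM in macrophage nuclei against 10.4 and 8.20 CPM in adipocyte nuclei. Irf1, the transcription factor, was at 33.4 and 55.1 CPM against 8.42 and 18.7 CPM.

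Of 7 antigen processing genes, Ctss and March1 passed 10-fold in both antigen-presenting gates, and Lgmn passed 2-fold. Over all genes 4.46% (macrophage) and 2.95% (B and dendritic) passed 10-fold, and 11.5% and 7.0% passed 2-fold. Ctss, the cathepsin that trims the invariant chain, was at 179 and 748 CPM in macrophage nuclei and 0.497 and 13.5 CPM in adipocyte nuclei. Its order between libraries was opposite to that of Cd74. March1, the ubiquitin ligase that removes class II from the surface, was at 324 and 282 CPM against 0.960 and 5.53 CPM. All 3 co-stimulation genes with enough UMIs (Cd80, Cd86, Cd83) passed 10-fold in both gates, against the same shares. Cd86 was at 184 and 156 CPM in macrophage nuclei, 337 and 377 CPM in B and dendritic nuclei, and 0.154 and 1.83 CPM in adipocyte nuclei.

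Class I genes are expressed by most nucleated cells. None of 9 passed 10-fold in the macrophage or the B and dendritic gate. At 2-fold, 7 passed in the macrophage gate (11.5% of all genes), 4 in the B and dendritic gate (7.0%), 7 in the endothelial gate (9.17%) and 6 in the T gate (6.17%). H2-K1, a class I heavy chain, was at 92.9 and 255 CPM in macrophage nuclei, 327 and 489 CPM in endothelial nuclei and 46.1 and 114 CPM in adipocyte nuclei. Nlrc5, the class I counterpart of Ciita, was at 81.0 and 159 CPM in macrophage nuclei and 36.1 and 131 CPM in adipocyte nuclei. The median macrophage to adipocyte ratio was 229 and 63.0 over the 3 co-stimulation genes, 168 and 32.7 over the 7 genes, 2.48 and 7.37 over antigen processing, 2.94 and 2.23 over the class I list, 2.02 and 2.36 over the interferon gamma route, 0.753 and 1.58 over the DNA-binding partners, and 0.921 and 1.03 over all genes compared.

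**Figure D4:**
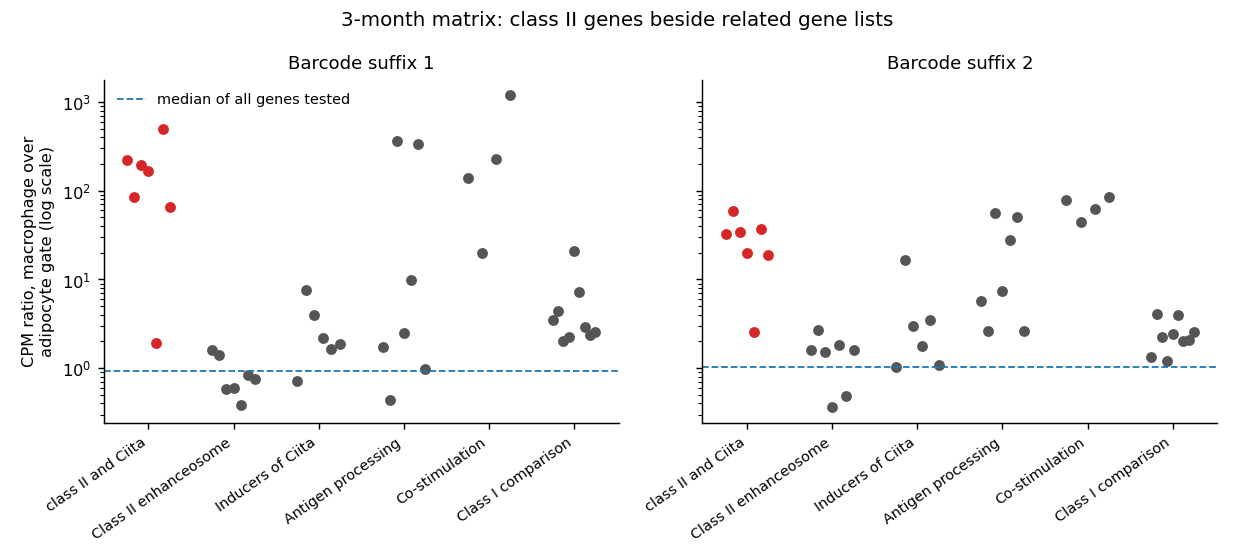
CPM ratio of the macrophage to the adipocyte gate on a log axis, with a point per gene, grouped by list, and a panel per library of the 3-month matrix; adipocyte counts under 3 are set to 3, genes with 0 UMIs in the macrophage gate are left out, and the dashed line is the median of all genes compared. Class II and co-stimulation genes lie mostly above 10-fold, and class I genes and DNA-binding partners below it.

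Further class II genes were too sparse to be compared and are given as counts. H2-Ob, a chain of the H2-O inhibitor of H2-M, had 8 and 21 UMIs in the B and dendritic gate (70.9 and 72.6 CPM) and 0 and 9 in the far larger macrophage gate (3.37 CPM with suffix 2; 0 allows up to 7.15 CPM with suffix 1). H2-DMb2, the second beta chain gene of H2-M, had 6 and 5 UMIs (53.2 and 17.3 CPM) against 0 and 3 (1.12 CPM with suffix 2). H2-Oa had 2 UMIs and H2-Eb2 5 UMIs in the B and dendritic gate over both libraries.

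Genes were ranked by the likeness of their profile to that of Ciita over 13 points (gates of at least 50 nuclei in each 3-month library), by Pearson correlation of log2(CPM + 1) over 13327 genes with at least 200 UMIs. The points of a library share its depth and its free RNA, so the ranking is a description. The 10 nearest genes were H2-Eb1 (0.975), Cybb (0.971), H2-Ab1 (0.970), Cd83 (0.965), Clec12a (0.964), H2-Aa (0.957), Ly86 (0.957), Cd180 (0.956), Cd74 (0.954) and Pirb (0.952). Cybb encodes a subunit of the phagocyte NADPH oxidase and Cd180 a B cell and myeloid surface receptor. H2-DMb1 ranked 86 (0.903) and H2-DMa 315 (0.817).

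In the aging matrix the same gates carried class II RNA, at few nuclei. The macrophage gate held 20, 46 and 32 nuclei and the class II sum was at 5486 (4552 to 6555), 1763 (1493 to 2068) and 1973 CPM (1649 to 2341) with suffixes 1, 2 and 3. The adipocyte gate was at 18.4, 63.5 and 33.0 CPM. The macrophage gate was thus 298-fold (198 to 461), 27.8-fold (21.9 to 35.3) and 59.8-fold (39.7 to 92.7) higher. Without H2-DMa these ratios were 872 (458 to 1865), 32.4 (25.3 to 41.7) and 94.8 (57.7 to 165), the first against 10 UMIs in the adipocyte gate. The B and dendritic gate, of 7, 37 and 5 nuclei, was at 7797 (5333 to 11007), 1586 (1304 to 1909) and 2402 CPM (1569 to 3519), with intervals that overlap the macrophage gate in each library. T nuclei held 0, 2 and 1 class II UMIs.

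Ciita was at 363, 490 and 256 CPM in macrophage nuclei (8, 42 and 17 UMIs) and at 487, 443 and 369.5 CPM in B and dendritic nuclei (2, 31 and 4 UMIs). In adipocyte nuclei it was at 1.23, 2.33 and 1.14 CPM (2, 5 and 1 UMIs). Cd74 was at 2992, 642 and 903 CPM in macrophage nuclei, and the library with suffix 1 stood above the others beyond their intervals (2314 to 3807, 484 to 836 and 689 to 1163). Ciita did not have that order. At least 10-fold over the adipocyte gate in every library was reached by 5 of the 7 genes, against 1.30% of 13879 genes; H2-DMa and H2-DMb1 were not called, with 3, 2 and 2 and with 1, 7 and 6 UMIs in the macrophage gate.

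Endothelial nuclei, the largest marker gate of the aging matrix, held class II UMIs at a low level. The class II sum there was 34.2, 84.9 and 26.9 CPM, or 1.86-fold, 1.34-fold and 0.816-fold of the adipocyte gate, and it made up 14.1%, 42.1% and 45.9% of all class II UMIs. Without H2-DMa the ratios were 4.79 (2.45 to 10.5), 1.45 (1.19 to 1.78) and 1.12 (0.696 to 1.91), and the intervals with suffix 3 included 1 with H2-DMa (0.559 to 1.23) and without it. The immune gates held 27.7%, 13.8% and 18.5%, and mixed nuclei 33.8%, 3.77% and 11.2%. With suffix 1, 34 of 67 endothelial UMIs of class II genes other than H2-DMa lay in 3 nuclei. Over 3 depth groups, from shallow to deep, these genes were at 2.90, 13.3 and 43.6 CPM in endothelial nuclei with suffix 1. They were at 80.9, 81.6 and 74.3 CPM with suffix 2 and at 26.5, 22.7 and 21.3 CPM with suffix 3. With suffixes 2 and 3, 501 of 575 and 296 of 312 endothelial nuclei with such a UMI had only 1. After thinning, 2.32%, 7.17% and 2.13% of endothelial nuclei held such a UMI, against 0.513%, 4.66% and 2.37% of adipocyte nuclei and 60.0%, 78.3% and 65.6% of macrophage nuclei. Before thinning the shares were 1.30%, 11.9% and 4.16%, against 1.57%, 10.1% and 5.03% and 90.0%, 89.1% and 84.4%. With suffix 1, thinning kept only 690 of 2548 endothelial and 10 of 20 macrophage nuclei. Macrophage markers were higher in endothelial than in adipocyte nuclei in each depth group. From shallow to deep they were at 273, 326 and 317, at 192, 198 and 212, and at 263, 279 and 307 CPM in endothelial nuclei. Adipocyte nuclei had 123, 110 and 102, then 114, 82.0 and 75.7, and then 155, 83.3 and 79.5 CPM. The depth groups were set within each gate and were not matched between gates. With suffix 1 their median depths were 417.5, 706 and 1251 UMIs in endothelial nuclei. In adipocyte nuclei of that library they were 1369, 2373 and 3706 UMIs. The part of macrophage RNA in the endothelial ratios was not tested.

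**Figure D5:**
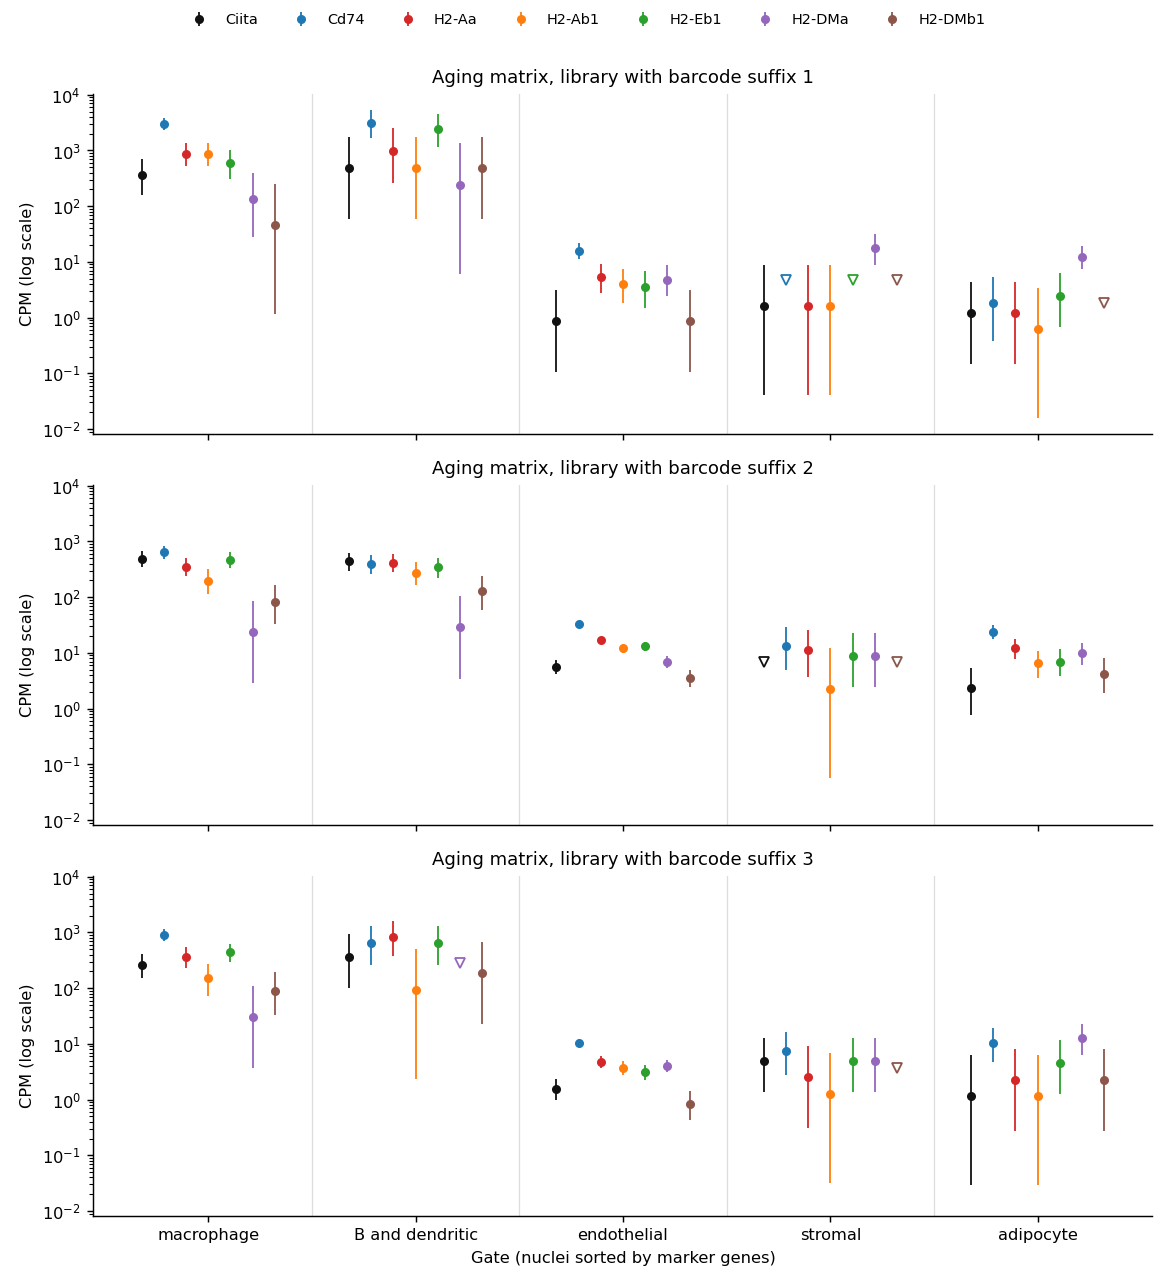
CPM on a log axis of Ciita and each class II gene (colours) in the gates of the aging matrix, with a panel per library, error bars for 95% exact Poisson intervals, and open down-pointing triangles for counts of 0 drawn at the limit of 3 counts. Cd74 lies between 642 and 2992 CPM in the macrophage gate and between 1.84 and 23.8 CPM in the adipocyte gate.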

How the data were processed

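Nuclei were isolated from iBAT, sorted, and sequenced with the 10x 3′ chemistry. Per the labels' processing notes, the authors used Cell Ranger 6.1.2 and Seurat 4.1.0 with mm10. The deposited values are unnormalized counts of UMIs for each gene in each nucleus. The annotation release, the handling of introns and the strand setting are not given in the sources used here. The methods limit nuclei to between 200 and 2000 UMIs and between 100 and 3000 genes, but this leaves 0 and 2763 nuclei of the 3-month libraries, so only its lower limits were applied (20307 and 27842 nuclei kept). A forced number of 10000 cells is stated, which is the barcode count of each aging library and of neither 3-month library.

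From the counts, nuclei were gated on 10 marker lists. A nucleus passed a list when its marker UMIs were at least 3-fold the library background, with a Poisson tail under 0.001 and at least 2 distinct markers. These limits held for the adipocyte list too. A nucleus that passed no list was then called adipocyte at 1.5-fold, a tail under 0.01 and at least 3 distinct adipocyte markers. The numeric limits were set on the markers alone. Nuclei passing only the macrophage and the B and dendritic lists went to the list with the smaller Poisson tail. Those passing only the endothelial and the lymphatic endothelial lists were called lymphatic endothelial. Other nuclei passing several lists were called mixed and those passing none ungated, and no doublet caller was run. UMIs were summed per gate and library and given as CPM with exact Poisson intervals, ratios with exact conditional binomial intervals and shares with Clopper-Pearson intervals, all at 95%. UMIs mark molecules, and these intervals cover counting error only. For a count of 0 the limit is 3 counts. Genes with at least 100 UMIs in a matrix entered the counts of all genes. With 1 library per condition no test was run and no p-value is given. Values over both libraries are Mantel-Haenszel ratios, checked on simulated Poisson counts with the same true ratio in each library. That check does not cover ratios that differ between libraries, as several did here.

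The named genes were the 7 genes, the markers, fixed pathway lists and the 10 genes most like Ciita. The genes and lists were chosen with earlier results of these data known. Gene positions are from GENCODE on GRCm38, the mm10 build, and promoters from RefSeq GRCm38.p6. Python 3.11.15, numpy 2.4.6, scipy 1.17.1, pandas 2.3.3 and matplotlib 3.10.9 were used. Alternatives were stricter gates, a gate by number of markers, the full stated range, removal of the deepest nuclei, reassignment of mixed nuclei, thinning to 500 UMIs and each library alone. Sums without H2-DMa were added after seeing the data.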

Additional observations from a re-analysis of the deposited data

Results flagged for a closer look

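Nuclei of the 3-month library with suffix 2 that passed no marker list, and so lay outside the named gates, carried class II RNA at 162 CPM (145 to 181), 5.73-fold (5.01 to 6.54) the adipocyte gate of that library. Ungated nuclei with suffix 1 were at 19.6 CPM, or 0.975-fold (0.849 to 1.12) of theirs. With suffix 2, 44.1% of the 306 class II UMIs other than H2-DMa lay in 27 of 1144 nuclei. These ungated nuclei had a median of 1359 UMIs, with macrophage markers at 473 CPM and adipocyte markers at 3991 CPM, and the part of unrecognised immune nuclei in the value was not tested.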

How the results depend on the processing

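Over both 3-month libraries, the class II sum was 26.7-fold higher in the macrophage and 49.4-fold higher in the B and dendritic gate than in the adipocyte gate, and both stayed above 8-fold under every alternative run. Of 129 alternatives over 14 results, 65 stayed within the counting interval and 5 turned the direction of a ratio whose interval excluded 1. The aging B and dendritic over macrophage ratios, 1.05 (0.871 to 1.26) for the class II sum and 0.985 (0.653 to 1.48) for Ciita, had intervals that include 1, and 9 of their 19 alternatives lay on the other side of 1. The macrophage ratio was 30.3 with at least 3 distinct markers, 18.5 when gated by the list with the most markers, 24.2 with mixed nuclei reassigned and 17.5 after thinning to 500 UMIs. The B and dendritic ratio was 30.5 and 28.7 with the most-markers gate and thinning. The B and dendritic over macrophage ratio of 1.55 became 1.29 with 3 markers. For Ciita that ratio was 2.02, and 2.63 after thinning. Ciita over the adipocyte gate was 129.9-fold, and 49.2 and 79.1 with the most-markers gate and thinning. The endothelial over adipocyte ratio of 1.72 reversed to 0.962 after thinning. The immune gates' 46.9% of class II UMIs became 43.5% with 3 markers, 25.1% with the most-markers gate, 49.9% without the deepest nuclei and 52.3% after thinning. The full stated range keeps no nucleus of suffix 1, so its values stand against suffix 2 alone. They were 8.43 against 20.4 (macrophage), 11.1 against 46.3 (B and dendritic), 1.31 against 2.26 (B and dendritic over macrophage), 0.676 against 2.17 (endothelial, reversed), 2.45 against 2.57 and 51.5 against 152 (Ciita, B and dendritic over macrophage and over adipocyte), and 42.1% against 55.8% (immune share). Leaving H2-DMa out of the sum, an alternative chosen after seeing the data, gave 35.2 (macrophage), 68.0 (B and dendritic) and an immune share of 55.7%, and in the aging matrix 65.3 (macrophage), 1.57 (endothelial) and 19.3%.

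With each 3-month library alone, the ratios ranged from 20.4 to 77.7 (macrophage), from 46.3 to 60.3 (B and dendritic), from 0.776 to 2.26 (B and dendritic over macrophage), from 1.13 to 2.17 (endothelial), from 0.800 to 2.57 (Ciita, B and dendritic over macrophage) and from 67.6 to 152 (Ciita over adipocyte), and the immune share from 33.8% to 55.8%. The values of 0.776 and 0.800, both from suffix 1, reversed the order. In the aging matrix the same ranges were 27.8 to 298, 24.99 to 424, 0.899 to 1.42, 0.816 to 1.86, 0.903 to 1.44 and 189.8 to 397, and 13.8% to 27.7%; 0.816 (0.559 to 1.23, which includes 1), from suffix 3, lay below 1 for the endothelial ratio, reversed against the 1.30 over all libraries, and the B and dendritic over macrophage ratios lay on both sides of 1.

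Over all aging libraries, the B and dendritic ratio of 34.9 became 51.5 after thinning, and the macrophage ratio of 50.4 became 61.1 with the most-markers gate and 76.96 after thinning. B and dendritic over macrophage was 1.05, and 0.781 in the full range and 0.811 with mixed nuclei reassigned. The endothelial ratio of 1.30 was 1.12 without the deepest nuclei. Ciita, B and dendritic over macrophage, was 0.985, and 0.609 in the full range and 0.526 after thinning, while Ciita over the adipocyte gate went from 205 to 1015 after thinning, with an interval from 6.72 upward. The immune share of 17.3% was 14.8% with 3 markers, 12.6% with the most-markers gate, 21.1% in the full range, 19.2% without the deepest nuclei, 19.5% with mixed nuclei reassigned and 22.5% after thinning. The causes were not tested.

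No paired analysis was possible because each condition had 1 library and suffixes are not tied to samples. Few nuclei limit the B and dendritic gate, with 22 and 114 in the 3-month and 7, 37 and 5 in the aging libraries, and the aging macrophage gate, with 20 to 46.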
